A study of Mus musculus with 16 samples.

Results

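Cytosolic ribosomal protein genes encode the proteins of the large and small subunits of the ribosome that works in the cytoplasm. They were taken from the gene table by symbol (Rpl or Rps followed by a digit, plus Rpsa, Rplp0, Rplp1, Rplp2 and Fau), leaving out pseudogene symbols containing -ps and the Rps6k kinases. The rule gave 88 of 24028 genes. Of these, 78 are the usual subunit genes (46 of the large subunit with its stalk, 32 of the small subunit, called core genes here), 9 are paralogues or retrocopies (Rpl22l1, Rpl39l, Rpl10l, Rpl3l, Rps4l, Rpl36al, Rpl7l1, Rps27l and Rpl37rt), and Rps19bp1, which encodes a protein that binds Rps19, matches the pattern without being a ribosomal protein. Gnb2l1, the symbol used here for Rack1 of the small subunit, falls outside the pattern.

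The RNA was that of tumour-infiltrating CD8 T cells. The tumours grew from TS/A, a murine mammary adenocarcinoma cell line, injected into a mammary pad of BALB/c animals. All mice carried the tumour and were dosed every day from day 7 after its injection, with the class I histone deacetylase inhibitor entinostat at 20 mg/kg or with vehicle. Tumours were taken at day 10 or at day 17, that is 3 or 10 days after dosing began. This gave the groups entinostat day 10, vehicle day 10, entinostat day 17 and vehicle day 17, each of 4 libraries of cells gated as live, CD45.2+, CD8+ and CD4-. The mice are given as BALB/c with no transgene, and the labels do not say whether a library came from 1 mouse or from a pool. The p-values therefore measure the spread between these libraries, which may be technical.

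A ribosome holds 1 copy of nearly every ribosomal protein, so cells make these proteins in matched amounts, and growing T cells make many ribosomes. In mammals the mRNAs of ribosomal proteins carry a terminal oligopyrimidine (TOP) tract, a C followed by a run of pyrimidines at the very start. Through it mTORC1 and the TOP-binding protein Larp1 set how much of the mRNA is translated, a step that RNA counts do not measure. Some subunit proteins have duties away from the ribosome, such as Rpl5 and Rpl11, which bind the p53 inhibitor Mdm2.

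The TOP tract could be looked for in the sequence around annotated starts. In the RefSeq promoter table of build GRCm38.p6, 58 of the core genes had 68 starts, and 14 of these starts (20.6%) began with C and 4 pyrimidines, read on the strand of the gene. Of all 32851 starts, 823 (2.51%) did so. A tract of the same kind began within 10 bases of the start in 54.4% of core starts and 29.7% of all starts. The starts below are those of Rps27 and Rps27l, the pair that the time comparison turns on, with Rps6 and Fau as core genes whose annotated start has the tract and Rplp0 as one whose start does not. Lower case marks the 15 bases before the annotated start and capitals the first 15 bases from it.
Rps27, chr3:90213634-90213663, minus strand: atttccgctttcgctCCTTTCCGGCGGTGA
Rps27l, chr9:66946071-66946100, plus strand: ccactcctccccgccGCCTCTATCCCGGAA
Rps27l, chr9:66946398-66946427, plus strand: accatgggcttcaggGTCACTAACGGGCCT
Rps6, chr4:86857353-86857382, minus strand: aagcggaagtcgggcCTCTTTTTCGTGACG
Fau, chr19:6057932-6057961, plus strand: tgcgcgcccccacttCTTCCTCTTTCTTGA
Rplp0, chr5:115559452-115559481, plus strand: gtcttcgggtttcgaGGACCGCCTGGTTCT
The capitals of Rps27, Rps6 and Fau open with C and pyrimidines, while those of Rps27l at both annotated starts and of Rplp0 open with G. At the first Rps27l start listed, C and 4 pyrimidines follow directly after that G. That start therefore has a tract of the same kind within 10 bases. These are matches in annotated windows and say nothing of the start used in these cells.

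Ribosomal protein genes made up about 1% of all counts. Their share was 0.932% ± 0.0903 in entinostat day 10 libraries and 0.902% ± 0.0363 in vehicle day 10 libraries (SD, n = 4 each). It was 1.17% ± 0.283 in entinostat day 17 libraries and 0.912% ± 0.140 in vehicle day 17 libraries (SD, n = 4 each). The ranges of the groups overlapped at both days, 0.810% to 1.03% against 0.867% to 0.940% at day 10, and 0.938% to 1.58% against 0.742% to 1.07% at day 17, entinostat first. The ratio of large to small subunit counts stayed between 1.34 and 1.41 in all 16 libraries. In such bulk RNA, fewer cells of a type and less RNA per cell cannot be told apart.

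The share moved with the depth of the library. Total counts ran from 554593 to 6975904, a 12.6-fold span, while the summed ribosomal protein counts ran from 8766 to 51769, a 5.91-fold span. The highest share, 1.58%, belonged to the shallowest library (entinostat day 17 replicate 3) and the lowest, 0.742%, to the deepest (vehicle day 17 replicate 1). Slopes on the log2 total count were fitted with groups held in the model and with TMM scaling, a correction for library composition. A slope of 1 would mean that a gene's count grew in proportion to the TMM-scaled total. The median slope was 0.745 over the 78 core genes (1.23 for Rpl29, named as the highest), against 1.03 over all 17414 genes tested. It was 0.638 over 18 other abundant genes such as Actb, and 1.20 over 76 genes of mitochondrial ribosomal proteins. Rps27 had a slope of 0.548 and Rps27l one of 1.07.

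**Figure D1:**
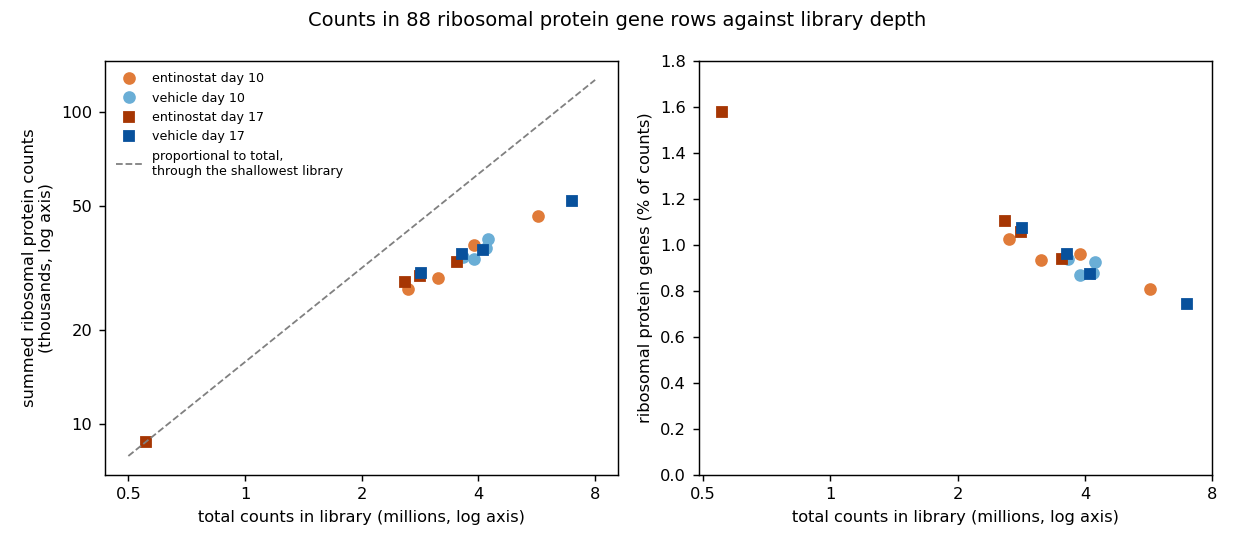
Left, summed counts of the 88 ribosomal protein genes (log axis) against total counts (log axis), 1 point per library, with a dashed line of proportionality through the shallowest library. Right, the same sums as a percent of all counts. The shallowest library, entinostat day 17 replicate 3, stands at 1.58%, and the other 15 libraries lie between 0.742% and 1.10%.

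The shallowest library also stood apart gene by gene. On the CPM scale (counts per 1000000 after TMM scaling, which corrects for library composition), 68 of the 78 core genes had their highest value there. The median core gene spanned 1.84-fold between its lowest and highest library, and 1.41-fold once that library was left out. In it 53 of the 88 genes had under 100 counts, against 6 to 9 genes in each other library. Medians and the main single-gene values at day 17 are given below also without it.

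Levels of single genes can be set against each other only per length. On library-size CPM per kilobase of transcript, averaged over the 16 libraries, the core genes ran from 19.3 (Rpl26) to 330 (Rps27), with a median of 169. Next to Rps27 came Rpl32 at 328 and Rps10 at 278 CPM per kilobase. These levels depend on the transcript length taken, which ran from 271 to 3706 bases over the core genes. They may also depend on how reads that fit several gene copies were counted, which is not known here. A transcript length was found for 86 of the 88 genes, not for Rps4l and Rpl37rt. The lowest of the 86 were Rpl10l at 0.261, Rpl3l at 0.837 and Rpl39l at 2.74 CPM per kilobase. In mice Rpl10l and Rpl39l are known from testis, and Rpl3l from skeletal muscle and heart. Rpl10l averaged 0.625 counts and Rpl3l 4.56 counts per library, and both failed the filter on low counts. The other 86 genes, with all 78 core genes among them, passed it and were tested.

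Treatment at day 10 was compared first, after 3 days of dosing. None of the 86 genes passed the test in either direction (edgeR quasi-likelihood test, adjusted p under 0.05), where 7.63% of all genes tested were higher and 6.93% lower. Without adjustment, 2 of the 86 genes had p under 0.05, both with negative log2 fold changes. Of all 17414 genes tested, 5827 had p under 0.05 (3239 higher and 2588 lower). The core genes lay close together, with log2 fold changes from -0.35 to 0.04 and a median of -0.11, against a median of 0.06 over all genes. Of the 78, 75 were below 0, whereas 64 were above 0 when libraries were scaled by their size alone. The CPM of 12 of the 86 did not overlap between the groups, all lower with entinostat, where 12.4% of all genes were lower and 7.81% higher without overlap.

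The subunit proteins with the best known roles gave the following levels. Rps6, the small subunit protein phosphorylated by S6 kinase downstream of mTORC1, had 154, 157, 147 and 121 CPM in entinostat day 10 libraries against 163, 158, 152 and 148 CPM in vehicle day 10 libraries. The groups overlapped, and the log2 fold change was -0.10 ± 0.14 (SE, adjusted p = 0.627). Rplp0, the base of the ribosomal stalk that recruits elongation factors, had 246, 221, 216 and 185 CPM with entinostat against 236, 233, 237 and 215 CPM with vehicle, which also overlapped. Its partners on the stalk were as close, Rplp1 at 112 ± 7.40 CPM against 122 ± 5.73 CPM and Rplp2 at 93.6 ± 9.53 CPM against 100.2 ± 1.97 CPM (entinostat first, SD, n = 4 each). Rpsa, a small subunit protein that also occurs as a laminin receptor, averaged 192 ± 20.9 CPM with entinostat and 199 ± 6.20 CPM with vehicle (SD, n = 4 each). Rpl5 and Rpl11 had log2 fold changes of -0.15 ± 0.14 and -0.10 ± 0.10 (SE), with 95% intervals from -0.44 to 0.14 and from -0.32 to 0.11.

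Rpl31, a large subunit protein near the exit tunnel, was the core gene with the smallest p at day 10 and is named for that. It had 77.3, 82.9, 75.2 and 72.7 CPM in entinostat day 10 libraries against 104, 91.2, 98.5 and 96.0 CPM in vehicle day 10 libraries. All 4 entinostat libraries lay below all 4 vehicle libraries. The log2 fold change was -0.34 ± 0.12 (SE, 95% interval -0.59 to -0.09), and the adjusted p of 0.0630 missed the threshold. With the log2 total count as a covariate it was -0.35 (adjusted p = 0.0129). In that fit 7 of the 86 were lower, Rpl10, Rpl13a, Rpl31 and Rpl4 among them, where 9.7% of all genes were.

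At day 17, after 10 days of dosing, again none of the 86 genes passed in either direction, where 5.29% of all genes tested were higher and 13% lower. Without adjustment, 8 of the 86 genes had p under 0.05, 7 of them with positive and 1 with a negative log2 fold change. Of all 17414 genes tested, 5774 had p under 0.05 (2241 higher and 3533 lower). The core genes had log2 fold changes from -0.24 to 0.53 with a median of 0.18, 70 of the 78 above 0, against a median of -0.01 over all genes. The sign of that median differed between settings. It was 0.07 without entinostat day 17 replicate 3, 0.09 with limma-voom, 0.28 with RLE scaling and 0.27 with DESeq2. It was -0.09 with the log2 total count as a covariate, and -0.04 over the 13 libraries whose totals lay between 2500000 and 4500000. Totals averaged 2374400 in entinostat day 17 and 4393400 in vehicle day 17 libraries, so depth went along with treatment. The part of depth was not tested.

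In several genes 1 library lay far from the other 3. Rplp0 had 225, 211, 398 and 227 CPM in entinostat day 17 libraries against 161, 208, 207 and 239 CPM in vehicle day 17 libraries. Rpsa had 205, 198, 367 and 210 CPM with entinostat against 147, 184, 184 and 226 CPM with vehicle. In both genes entinostat replicate 3 is far above the rest, and the other 3 lie within the range of the vehicle libraries. Their log2 fold changes were 0.34 ± 0.16 (SE, 95% interval -0.0039 to 0.69, adjusted p = 0.155) for Rplp0 and 0.36 ± 0.16 (SE, 95% interval 0.02 to 0.71, adjusted p = 0.131) for Rpsa. Rps6 was likewise highest in entinostat replicate 3, with 155, 148, 249 and 145 CPM against 118, 144, 145 and 162 CPM, entinostat first. Without entinostat replicate 3 the log2 fold change was 0.15 for Rplp0, 0.17 for Rpsa and 0.10 for Rps6, none called. Rpl4, a large subunit protein with a loop in the exit tunnel, had the smallest p of the core genes and is named for that, at 0.34 ± 0.13 (SE, adjusted p = 0.0841) and 0.20 (adjusted p = 0.218) without entinostat replicate 3. It had 381, 358, 574 and 373 CPM with entinostat against 282, 339, 334 and 365 CPM with vehicle. Rpl11, in contrast, had 99.0, 92.9, 108 and 98.4 CPM with entinostat against 80.2, 98.2, 99.1 and 110 CPM with vehicle. Its entinostat replicate 3 lies within the range of the vehicle libraries.

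Further subunit genes overlapped between the groups. Fau, which encodes a small subunit protein fused to a ubiquitin-like domain, averaged 104 ± 13.7 CPM in entinostat day 17 libraries and 104 ± 10.2 CPM in vehicle day 17 libraries (SD, n = 4 each). Rps27a, the ubiquitin fusion of the small subunit, averaged 131 ± 31.7 CPM with entinostat and 113 ± 14.4 CPM with vehicle. Rps14 averaged 153 ± 34.4 CPM against 129 ± 20.4 CPM, and Rps19, a protein mutated in Diamond-Blackfan anaemia in humans, 158 ± 48.8 CPM against 129 ± 18.4 CPM, entinostat first. Rpl3, which lies at the peptidyl transferase centre, averaged 297 ± 83.4 CPM with entinostat and 242 ± 38.1 CPM with vehicle, and Rpl10, which joins the large subunit last, 184 ± 51.2 CPM against 155 ± 18.2 CPM. None of these differences passed the test. Entinostat replicate 3 was the highest library for Rps19, Rpl3, Rpl10, Rps14 and Rps27a, whose log2 fold changes were 0.24, 0.27, 0.21, 0.21 and 0.17 with it and 0.08, 0.11, 0.06, 0.11 and 0.06 without it.

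**Figure D2:**
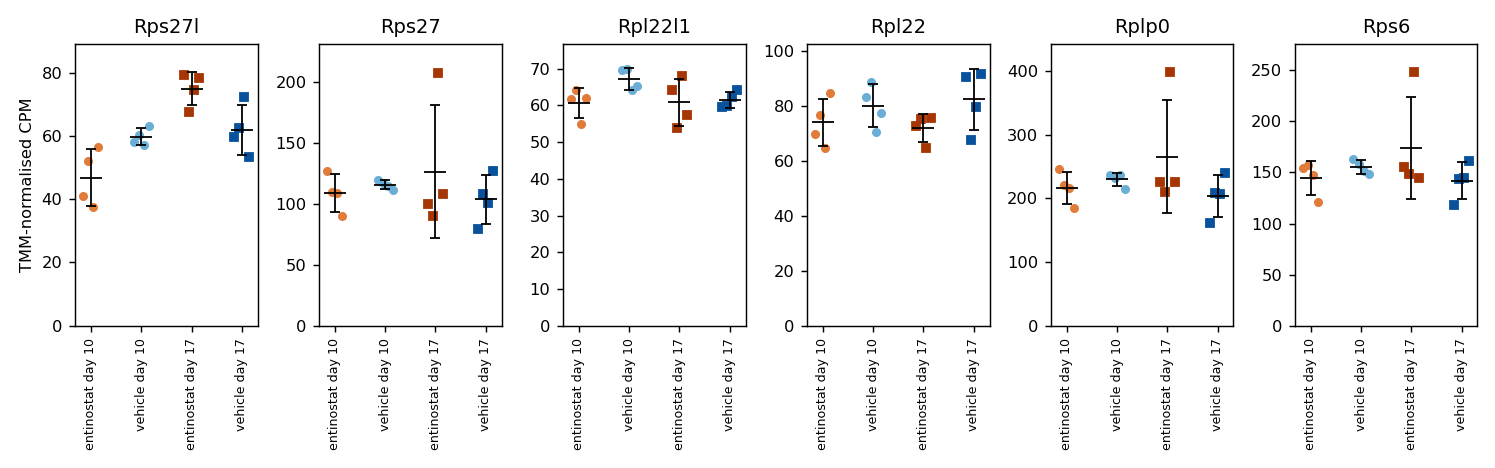
TMM-scaled CPM of 6 ribosomal protein genes in each library (points), with group mean and SD (black bars, n = 4), entinostat left of vehicle at each day. In Rps27, Rplp0 and Rps6 the highest point is entinostat day 17 replicate 3, at 207, 398 and 249 CPM, while the 4 entinostat day 17 points of Rps27l lie together between 67.6 and 79.4 CPM.

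The time comparison with entinostat gave the only member that passed. Rps27l, a paralogue of Rps27 known in mice and humans as a p53 target gene, rose in entinostat day 17 libraries over entinostat day 10 libraries. It was 1 of 86 genes, where 3.26% of all genes tested were higher and 10.5% lower, so 1 call is no more than the background. The CPM was 79.4, 67.6, 74.7 and 78.4 in entinostat day 17 libraries against 40.9, 52.0, 37.6 and 56.7 in entinostat day 10 libraries. All 4 day 17 libraries lay above all 4 day 10 libraries. The means were 75 ± 5.35 CPM and 46.8 ± 9.0 CPM (SD, n = 4 per day), and the log2 fold change 0.67 ± 0.15 (SE, 95% interval 0.37 to 0.98, adjusted p = 0.00458). With the total count as a covariate the change was 0.74 (adjusted p = 0.00545), and leaving out 1 library at a time gave 0.57 to 0.77. Scaled to the summed ribosomal protein counts, that is relative to the other members, it was 0.52 and missed the threshold (adjusted p = 0.149).

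The other Rps27l comparisons did not pass in the edgeR fit of all libraries with TMM scaling. In vehicle day 17 libraries it had 59.6, 62.5, 72.3 and 53.5 CPM against 58.1, 60.4, 57.2 and 63.3 CPM in vehicle day 10 libraries, which overlap, with a log2 fold change of 0.05 ± 0.14 (SE, 95% interval -0.24 to 0.35, adjusted p = 0.832). Entinostat against vehicle gave -0.35 ± 0.14 at day 10 (SE, 95% interval -0.65 to -0.05, adjusted p = 0.102) and 0.27 ± 0.14 at day 17 (SE, 95% interval -0.03 to 0.58, adjusted p = 0.193). All 4 entinostat libraries were below all 4 vehicle libraries at day 10. At day 17, 3 of the 4 entinostat libraries were above all vehicle libraries. The difference of the 2 entinostat effects, which draws on all 4 groups, was 0.62 ± 0.20 (SE, 95% interval 0.19 to 1.05, adjusted p = 0.184). At day 10 it passed as lower with limma-voom (-0.46, adjusted p = 0.0123), over the 13 libraries of middle depth (-0.46, adjusted p = 0.0305) and without entinostat day 10 replicate 4 (-0.43, adjusted p = 0.0364), at day 17 as higher with library size alone (0.43, adjusted p = 0.0380), and the difference passed with DESeq2 (0.67, adjusted p = 0.0448). These comparisons share libraries with the time comparison and are not independent of it.

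Rps27 did not do the same. It had 99.7, 90.2, 207 and 108 CPM in entinostat day 17 libraries against 127, 109, 109 and 89.9 CPM in entinostat day 10 libraries, and 3 of the 4 day 17 values lie within the day 10 range. The log2 fold change was 0.14 ± 0.20 (SE, 95% interval -0.28 to 0.56). With the total count as a covariate it turned to -0.28 and passed the test as lower (adjusted p = 0.0328), the only lower call in that fit among the 86, where 6.99% of all genes were lower. The coding sequences of the pair are both 252 bases long and 76.2% identical.

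Marker levels of other cells were measured beside this change, as a check of the sort. The summed CPM of 15 plasmacytoid and conventional dendritic cell markers was 771 to 910 in entinostat day 17 libraries against 608 to 998 in entinostat day 10 libraries, and that of 8 CD8 T cell markers 3128 to 5295 against 3012 to 3876. All 15 and all 8 had counts in both groups, and both sums overlapped between the days. Between treatments they differed more, with dendritic cell sums of 608 to 998 CPM in entinostat against 1415 to 3019 CPM in vehicle libraries at day 10, and of 771 to 910 against 2695 to 3452 CPM at day 17. Macrophage and neutrophil markers (13 genes) summed to 79.6 to 110 CPM with entinostat against 218 to 281 CPM with vehicle at day 17. At day 10 their sums overlapped, at 65.4 to 169 against 80.4 to 202 CPM, entinostat first. These genes did not move together. Of the 9 tested, 5 had log2 fold changes above 0 and 4 below at day 17. At day 10, 6 were above 0 and 3 below. In vehicle day 17 libraries the CD8 T cell sum was 2796 to 3588 CPM, a range that the dendritic cell sum overlapped. The lists differ in length and in genes, so their sums do not compare amounts of the cell types. The sums of 5 NK cell markers were higher with entinostat without overlap. They were 291 to 313 against 194 to 262 CPM at day 10, and 248 to 383 against 139 to 229 CPM at day 17. Of these 5 genes, 3 had log2 fold changes above 0 at day 10 and 2 at day 17. Over all groups, 5 CD4 T cell markers summed to 499 to 781 CPM and 6 B cell markers to 21.3 to 69.7 CPM. The 13 stromal, endothelial and epithelial markers summed to 161 to 1675 CPM. The part of these cells in the ribosomal protein values was not tested.

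Over the same time with entinostat, the 78 core genes had a median log2 fold change of 0.17, 73 of them above 0 and none called, against 0.03 over all genes. Without entinostat day 17 replicate 3 the median was 0.01, with 46 of 78 above 0. Besides Rps27l, the genes Rpl15, Rpl6 and Rps26 had higher CPM at day 17 without overlap (4 of 86, where 8.94% of all genes did), and none was lower without overlap, where 12.5% of all genes were. Rpl15, a large subunit protein, had 94.9, 98.5, 174 and 100.1 CPM in entinostat day 17 libraries against 91.1, 84.7, 86.3 and 88.3 CPM in entinostat day 10 libraries. Its log2 fold change was 0.36 ± 0.15 (SE, adjusted p = 0.124), and day 17 replicate 3 lay far above the others. Without it the value was 0.15 (adjusted p = 0.409).

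With vehicle, day 17 against day 10, none of the 86 genes passed, where 1.89% of all genes were higher and 3.63% lower. A single gene of the 86, Rpl13a, had p under 0.05 without adjustment, at -0.23 ± 0.11 (SE, adjusted p = 0.183). Of all 17414 genes tested, 4482 had p under 0.05 (2425 higher and 2057 lower). The core genes had a median of -0.12, 76 of 78 below 0 (51 of 78 above 0 with library size alone), against 0.13 over all genes, and 6 of 86 had lower CPM at day 17 without overlap, where 8.77% of all genes did. None was higher without overlap, where 4.78% of all genes were. Marker levels were measured over the same time as well. The CD8 T cell sum was 2796 to 3588 CPM in vehicle day 17 libraries against 3599 to 4082 CPM in vehicle day 10 libraries, and the dendritic cell sum 2695 to 3452 CPM against 1415 to 3019 CPM. All 8 CD8 T cell markers had log2 fold changes below 0 and all 15 dendritic cell markers above 0, none of them called, while 3 of 10 tested stromal, endothelial and epithelial markers were called higher. Their part in the core median was not tested. The test of whether the entinostat effect differed between days called none of the 86, where 0.218% of all genes were higher and 0.253% lower. Without adjustment, 6 of the 86 had p under 0.05, all positive. Of all 17414 genes tested, 2270 had p under 0.05 (794 higher and 1476 lower). The core median of that difference was 0.30, against -0.20 over all genes. It was 0.15 without entinostat day 17 replicate 3 and 0.05 with the total count as a covariate.

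**Figure D3:**
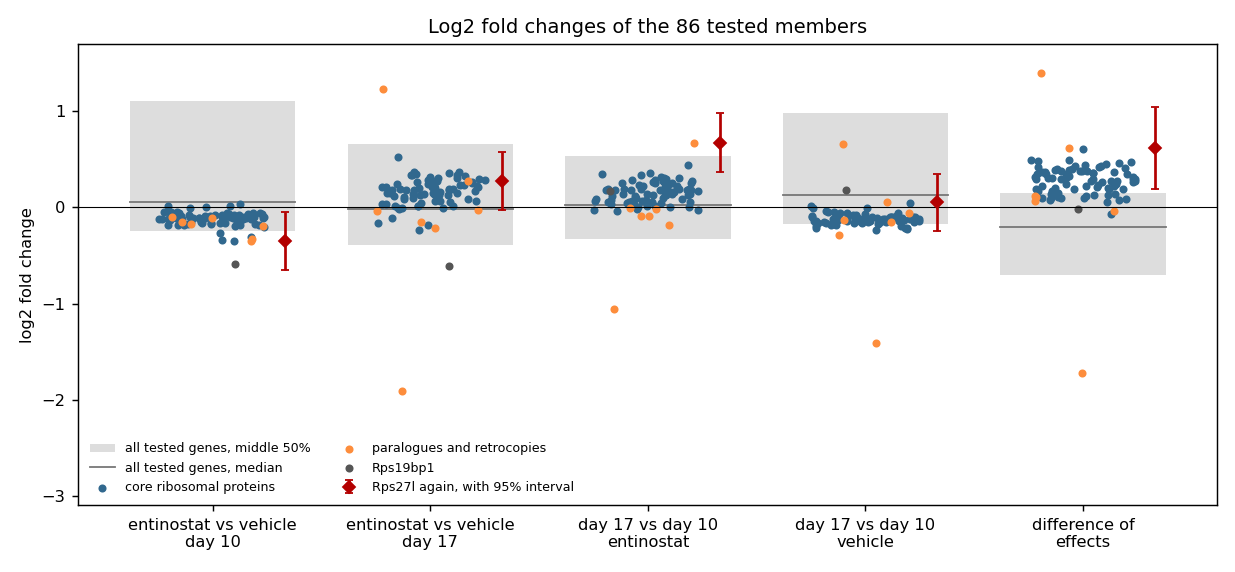
Log2 fold changes (edgeR, TMM scaling) of the 86 tested genes in 5 comparisons, 1 point per gene, over the middle 50% (grey box) and the median (line) of all 17414 genes tested. Core genes form a narrow band near 0, with medians of -0.11, 0.18, 0.17, -0.12 and 0.30 from left to right. With library size alone the medians of day 10 and of vehicle over time change sign, and with the total count as a covariate those of day 17 and of entinostat over time do. The red diamond repeats Rps27l with its 95% interval, which is 0.37 to 0.98 for day 17 against day 10 with entinostat.

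**Figure D4:**
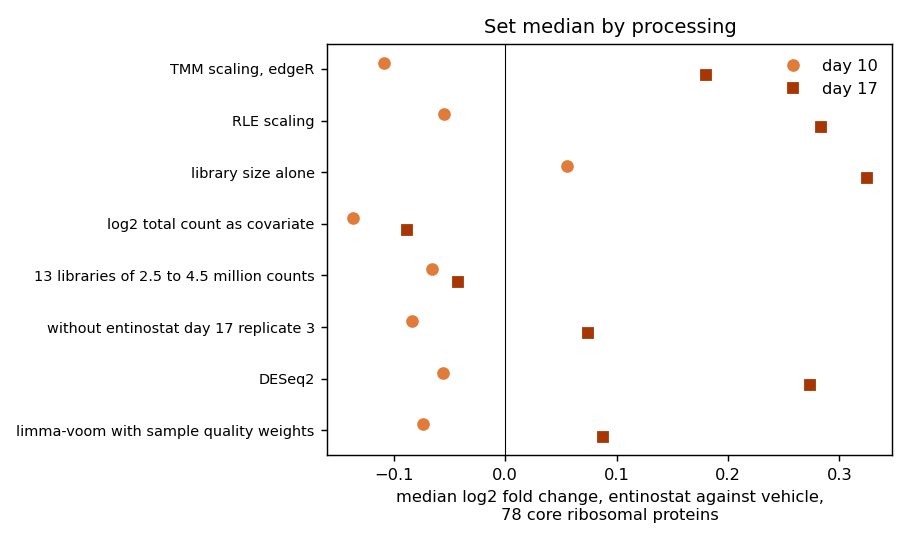
Median log2 fold change of the 78 core genes, entinostat against vehicle, at day 10 (circles) and day 17 (squares) under 8 ways of processing. The day 17 median is 0.18 under TMM scaling and -0.09 with the log2 total count as a covariate. The day 10 median is below 0 in each setting drawn except library size alone, where it is 0.06.

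None of the remaining paralogues passed the test in any comparison. Rpl22 is needed for the development of alpha-beta T cells in mice, and Rpl22l1 is its paralogue, with 67.5% identity of coding sequence. Rpl22l1 had 64.3, 53.9, 68.0 and 57.3 CPM in entinostat day 17 libraries against 59.7, 59.8, 62.3 and 64.1 CPM in vehicle day 17 libraries. Rpl22 had 72.7, 75.4, 64.7 and 75.6 CPM against 90.7, 67.8, 79.8 and 91.6 CPM, entinostat first. The groups overlapped in both genes, with 95% intervals of the log2 fold change from -0.27 to 0.21 for Rpl22l1 and from -0.45 to 0.09 for Rpl22. At day 10 the log2 fold changes were -0.15 ± 0.11 for Rpl22l1 and -0.11 ± 0.13 for Rpl22 (SE).

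Rps4l, a relative of the X-linked Rps4x, was the 1 member whose CPM did not overlap between treatments at day 17. It had 1.29, 3.23, 1.66 and 3.39 CPM in entinostat day 17 libraries against 11.1, 11.9, 10.0 and 4.80 CPM in vehicle day 17 libraries. All 4 entinostat libraries lay below all 4 vehicle libraries, where 13.6% of all genes did so and 10.8% lay above. The log2 fold change was -1.91 ± 0.74 (SE, 95% interval -3.46 to -0.36, adjusted p = 0.0785), and the gene averaged 23.9 counts per library. Rps4x itself had a log2 fold change of 0.18 ± 0.12 (SE) in the same comparison. Rps4l also varied within a group, with 1.49, 7.98, 0.925 and 10.2 CPM in entinostat day 10 libraries. Its slope on the log2 total count was 1.98, the steepest of the tested members, against a median of 0.745 over the core genes. Totals averaged 2374400 in entinostat day 17 and 4393400 in vehicle day 17 libraries. The part of depth in the Rps4l values was not tested.

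Rpl39l, a paralogue of the exit tunnel protein Rpl39 with 85.0% identity of coding sequence, was at 0 in 1 entinostat day 17 and 1 vehicle day 17 library and at most 4.92 CPM elsewhere. Rpl39 had 63.3 to 87.9 CPM in entinostat day 17 libraries and 56.1 to 79.6 CPM in vehicle day 17 libraries. Rpl36al had 4.98 to 16.4 CPM with entinostat and 13.7 to 15.2 CPM with vehicle at day 17, where Rpl36a had 57.1 to 91.2 CPM and 55.2 to 67.6 CPM. Rpl7l1 averaged 109 ± 6.05 CPM and 120 ± 10.7 CPM in the same groups, and the retrocopy Rpl37rt 37.3 ± 5.16 CPM and 37.7 ± 6.46 CPM (entinostat first, SD, n = 4 each). Rps19bp1 had 10.2 to 16.4 CPM with entinostat and 14.9 to 25.4 CPM with vehicle at day 17, with a log2 fold change of -0.61 ± 0.29 (SE, adjusted p = 0.157). Ribosomal protein genes have many processed copies in the genome, and how reads that fit several copies were counted is not given in the sources used here. The 6 pseudogene rows of the table held 4529 counts against 537177 in the 88 genes.

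Genes that work beside the ribosomal proteins were counted in the same fit, where 6.93% of all genes were lower with entinostat at day 10 and 13% at day 17. Of 76 tested mitochondrial ribosomal protein genes, 4 were lower with entinostat at day 10 and none was called at day 17. Of 37 ribosome biogenesis genes, 4 were lower and none higher at each day, with medians of -0.24 at day 10 and -0.10 at day 17. Taf1d, a subunit of the RNA polymerase I initiation factor SL1, fell to 57.4 ± 4.10 CPM in entinostat day 17 libraries against 85.1 ± 12.6 CPM in vehicle day 17 libraries (SD, n = 4 per group), at a log2 fold change of -0.55 ± 0.15 (SE, adjusted p = 0.0168, up to 0.0814 over the alternatives). Of 22 initiation factor genes, 4 were lower at day 10 and 2 at day 17. Eif4a2, an RNA helicase of the cap-binding complex, had 136, 143, 141 and 124 CPM in entinostat day 17 libraries against 200.2, 181, 190 and 264 CPM in vehicle day 17 libraries, and fell by 0.62 ± 0.12 on the log2 scale (SE, adjusted p = 0.00125). Of 21 elongation factor and other TOP genes, Eif3f was lower at day 10 (-0.27 ± 0.09, SE, adjusted p = 0.0456, up to 0.641 over the alternatives) and none passed at day 17. Gnb2l1, of the same list, had a log2 fold change of 0.22 ± 0.12 at day 17 (SE), which did not pass.

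The mTORC1 and S6 kinase list held 17 genes, of which 5 were lower with entinostat at day 10 and 4 at day 17, none higher, beside the 6.93% and 13% of all genes that were lower. Rptor, the scaffold of mTORC1, had 124, 113, 126 and 110 CPM in entinostat day 10 libraries against 198, 187, 194 and 196 CPM in vehicle day 10 libraries. At day 17 it had 89.7, 127, 92.9 and 94.3 CPM with entinostat against 202, 141, 162 and 193 CPM with vehicle. The entinostat libraries lay below all vehicle libraries at both days, with log2 fold changes of -0.71 ± 0.12 (SE, adjusted p = 0.00185, up to 0.0622 over the alternatives) and -0.78 ± 0.13 (SE, adjusted p = 0.000336). Larp1, which binds the TOP tract, had 108, 230, 128 and 147 CPM in entinostat day 10 libraries against 245, 252, 230 and 226 CPM in vehicle day 10 libraries, a log2 fold change of -0.63 ± 0.17 (SE, adjusted p = 0.0237, up to 0.170 over the alternatives). A single entinostat library, at 230 CPM, reached the vehicle range. At day 17 it had 183, 214, 168 and 214 CPM with entinostat against 142, 163, 136 and 114 CPM with vehicle, which do not overlap, at 0.50 ± 0.17 (SE, adjusted p = 0.0522). The difference of these effects was 1.14 ± 0.24 (SE, adjusted p = 0.0455), and its adjusted p ran from 0.000447 to 0.269 over the alternatives.

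Among 18 abundant genes outside the ribosome, none was called between treatments at either day. Their median log2 fold change was 0.37 at day 17, of the same sign as that of the core genes. Over time with entinostat 3 of the 18 rose, where 3.26% of all genes did, with Pkm, a glycolytic enzyme, at 0.60 ± 0.15 (SE, adjusted p = 0.0100, up to 0.0350 over the alternatives). Pkm was highest in entinostat day 17 replicate 3, and its change was 0.39 without that library and 0.31 with the total count as a covariate. Nap1l1, a histone chaperone on the TOP list, rose by 0.43 ± 0.11 on the log2 scale (SE, adjusted p = 0.0133, up to 0.444 over the alternatives).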

How the data were processed

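RNA was made into cDNA with the SMART-seq v4 kit and into libraries with Nextera XT, per the labels' protocols, a method that marks neither strand nor molecule. The authors deposited whole-number counts per gene, unscaled, for 16 libraries. The submitters' processing notes name STAR and mm10. Which program and annotation gave the counts, and whether duplicates were removed, is not given in the sources used here. Reads of genes that overlap on opposite strands are pooled. Counting error is largest in the shallowest library.

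Genes were kept by filterByExpr at a minimum count of 10 (17414 genes). Tests used edgeR 4.0.16 under R 4.3.3 (quasi-likelihood, TMM scaling, a mean per group, residual degrees of freedom 12, biological coefficient of variation 0.380), with Benjamini-Hochberg adjustment within each comparison at 0.05. Adjusted p-values without a named tool are from this fit. Log2 fold changes carry SE and 95% intervals. Per-kilobase levels use the shortest principal protein-coding transcript of GENCODE M21 (GRCm38). The fit was tested on simulated data, but no outcome is given here, so this lends the results no support. The closest pair of libraries within a group differed by 2.96 times sampling noise (chi-square per degree of freedom), so none was merged.

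Equal replicate numbers were taken to pair libraries in the day 10 comparison only, which is drawn from the data alone, since the deviations of like-numbered libraries from their group means correlated at 0.259, 0.260, 0.240 and 0.270 over 9772 genes of at least 16 CPM. Over all genes tested these were 0.180, 0.0329, 0.114 and 0.0572. There only entinostat replicate 1 correlated best with the vehicle library of its own number, and over the 9772 genes replicate 3 did not. The pairing is therefore uncertain, and the main fit does not use it.

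The genes named with values were a fixed set, called genes, the 3 highest and lowest per kilobase, and called genes of the lists, with others named as chosen on their values. Members, lists and this rule were chosen with earlier results of these data known. Alternatives were RLE scaling, library size alone, no filter, log2 total count as a covariate, replicate blocks, only the groups compared, limma-voom 3.58.1, DESeq2 1.42.0 and leaving out each library. Scaling to summed ribosomal protein counts and the 13 libraries of 2500000 to 4500000 counts were chosen after seeing the data. A few genes are not reported here by name.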

Additional observations from a re-analysis of the deposited data

Results flagged for a closer look

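Of 168 groups of 4 libraries looked at for a single library far from the other 3, 27 had one, where chance gives about 1 in 20 groups (8 of them). In 16 it was entinostat day 17 replicate 3, the shallowest library. It was high for 15 genes. Its CPM was 366.6 for Rpsa (198.2 to 209.6 in the other 3), 398.1 for Rplp0 (210.8 to 226.6), 136 for Rplp2 (90.5 to 97.7), 248.8 for Rps6 (144.8 to 155) and 421.4 for Rpl3 (241.3 to 264.3). It was 207.4 for Rps27 (90.2 to 108.2), 260.4 for Rpl10 (151.9 to 165.6), 287 for Rpl7 (165.9 to 176.5), 230.6 for Rps19 (127.1 to 140.1) and 300.3 for Rpl32 (159.9 to 172.3). It was 574 for Rpl4 (357.8 to 381) and 174.2 for Rpl15 (94.9 to 100.1). Outside the ribosomal protein genes it was 368.3 for Gnb2l1 (241.3 to 262.4), 973.8 for Pkm (555.5 to 613.2) and 2684 for Actb (733.4 to 844.7). The same library was low for Rpl26, at 6.636 CPM (9.69 to 10.3).

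The others were spread over further libraries of all groups. In entinostat day 10 libraries, Fau stood at 119.4 CPM in replicate 1 (94.7 to 98.1 in the other 3), Rpl39l at 3.861 in replicate 2 (0.925 to 1.12), Rpl26 at 6.784 in replicate 3 (10.0 to 10.3) and Nap1l1 at 134 in replicate 4 (97.8 to 103.7). In vehicle day 10 libraries, Rpl39 stood at 76.08 (66.4 to 67.1) and Gnb2l1 at 278.7 (254 to 256.8) in replicate 1, and Rps4l at 13.6 (2.85 to 4.58) and Rpl7 at 170.5 (185.5 to 185.6) in replicate 4. At day 17, Rptor stood at 126.5 in entinostat replicate 2 (89.7 to 94.3), Rpl36a at 55.21 in vehicle replicate 1 (65.9 to 67.6) and Rpl39l at 2.743 in vehicle replicate 4 (0 to 0.265).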

How the results depend on the processing

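Under the alternatives at most 7 of the 86 members were called in any comparison and direction. The 7 lower calls at day 10 with the covariate stand beside 9.7% of all genes called lower in that fit. Counts given here without a share of all genes cannot be set against a background. At day 10, lower calls with entinostat were 0 as reported, 7 with the log2 total count as a covariate, 6 with the replicate block and that covariate, 3 with limma-voom, 3 over the 13 libraries of 2500000 to 4500000 counts, and 0 to 1 leaving out 1 library (1, Rps27l, without entinostat day 10 replicate 4). At day 17, higher calls were 0 as reported, 7 with library size alone (7.79% of all genes), 5 with DESeq2 (9.75%) and 0 to 4 leaving out 1 library (4 when entinostat day 17 replicate 2 was dropped, 3 when vehicle day 17 replicate 4 was). Lower calls at day 17 were 0 as reported, 2 with the covariate, 1 with the replicate block (Rps4l), 1 with block and covariate, 1 with only the groups compared, 2 with limma-voom and 1 over the 13 libraries. From day 10 to day 17 with entinostat, higher calls were 1 as reported, 4 with library size alone, 2 with DESeq2, 0 scaled to summed ribosomal protein counts and 1 to 2 leaving out 1 library (2 without entinostat day 17 replicate 2). Lower calls there were 0 as reported and 1 (Rps27) both with the covariate and with block and covariate. The covariate fit called 6.99% of all genes lower over that time. With vehicle over time, lower calls were 0 as reported, 3 with the covariate and 2 with block and covariate, and for the difference of effects DESeq2 called 1 higher (Rps27l, adjusted p = 0.0448). DESeq2 left 1 to 3 members per comparison without an adjusted p. At day 10, where equal numbers were taken to pair the libraries, the replicate block alone changed no member call.

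The log2 fold change of Rps27 reversed with the covariate, to -0.27 at day 17 against vehicle and to -0.28 over time with entinostat (-0.30 with the block). Library size alone moved the median of all genes at day 10 to 0.22, against 0.06 with TMM scaling, and the core median to 0.06, against -0.11. Leaving out 1 library kept the sign of the core median in each comparison. The causes were not tested. The shallowest library limits precision most at day 17 with entinostat, and intervals cover the spread between 4 libraries per group only.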
